A study of Sus scrofa with 8 samples.

Results

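Swine MHC class I and peptide loading was followed here through 20 probe sets of the Affymetrix Porcine array, of 23999 tested, which stand for 8 of 8144 genes named by 1 symbol. A probe set is a group of short oligonucleotide probes that together measure a transcript. The members were all probe sets whose deposited gene symbol was SLA-1, SLA-2, SLA-3, SLA-6, SLA-7, SLA-8, B2M, TAP1, TAP2 or TAPBP, and 8 of these 10 symbols were present. SLA-1 had 5 probe sets, SLA-2 had 4, TAP1 had 3, SLA-6, SLA-8 and B2M had 2 each, and SLA-3 and SLA-7 had 1 each, while no probe set carried TAP2 or TAPBP as its symbol. Another 12 probe sets were annotated to class I or tapasin without a single symbol of the list, and they are described apart from the members. Total RNA came from the livers of lactating sows and of non-lactating control sows (Sus scrofa), all female. Each group had 8 sows, 16 in all, with equal amounts of RNA from 2 sows combined in each pool, so that 4 lactating and 4 non-lactating pools were hybridised to 1 array each. The sources used here give no breed, age or day of lactation. A pool averages 2 animals, so the spread between pools is smaller than that between sows would be.

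MHC class I molecules carry peptides from inside the cell to its surface, where CD8+ T cells inspect them. Each is a heavy chain, encoded in the pig by the swine leukocyte antigen (SLA) genes, paired with the invariant light chain beta-2 microglobulin (B2M). Peptides are cut by the proteasome, pumped into the endoplasmic reticulum by the transporter made of TAP1 and TAP2, and loaded with the help of tapasin (TAPBP), calreticulin and PDIA3. SLA-1, SLA-2 and SLA-3 are the classical, highly polymorphic heavy chains, and SLA-6, SLA-7 and SLA-8 are the less variable non-classical ones. Class I is found on most nucleated cells and is raised by interferons, and in liver it can come from hepatocytes as well as from endothelial, Kupffer and other immune cells.

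No member differed between lactating and non-lactating livers at an adjusted p below 0.05 (limma, adjusted by Benjamini and Hochberg over all probe sets), whereas 6.85% of all probe sets did (3.74% higher and 3.11% lower in lactating pools), or 8.64% of genes read by their brightest probe set. At an unadjusted p below 0.05 the count was 0 of 20 members, beside 22.9% of all probe sets, and it was also 0 of 20 by the p-values in the authors' deposited table, beside 20.7%. Adjusted p-values of the members ran from 0.263 to 0.984. The members divided evenly into 10 with a higher and 10 with a lower mean in lactating pools. Their median difference (lactating minus non-lactating log2 signal) was 0.00 and their median absolute difference 0.08, beside a median absolute difference of 0.12 over all probe sets. The ranges of the groups overlapped for every member, while they did not overlap for 15.3% of all probe sets. A p that misses the threshold does not show that levels were equal, so the 95% interval of each difference is given below. For 16 of 20 members the interval lay within 0.5 log2 units on either side of 0, which is 1.41-fold, and for 19 of 20 within 1 unit, which is 2-fold.

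**Figure D1:**
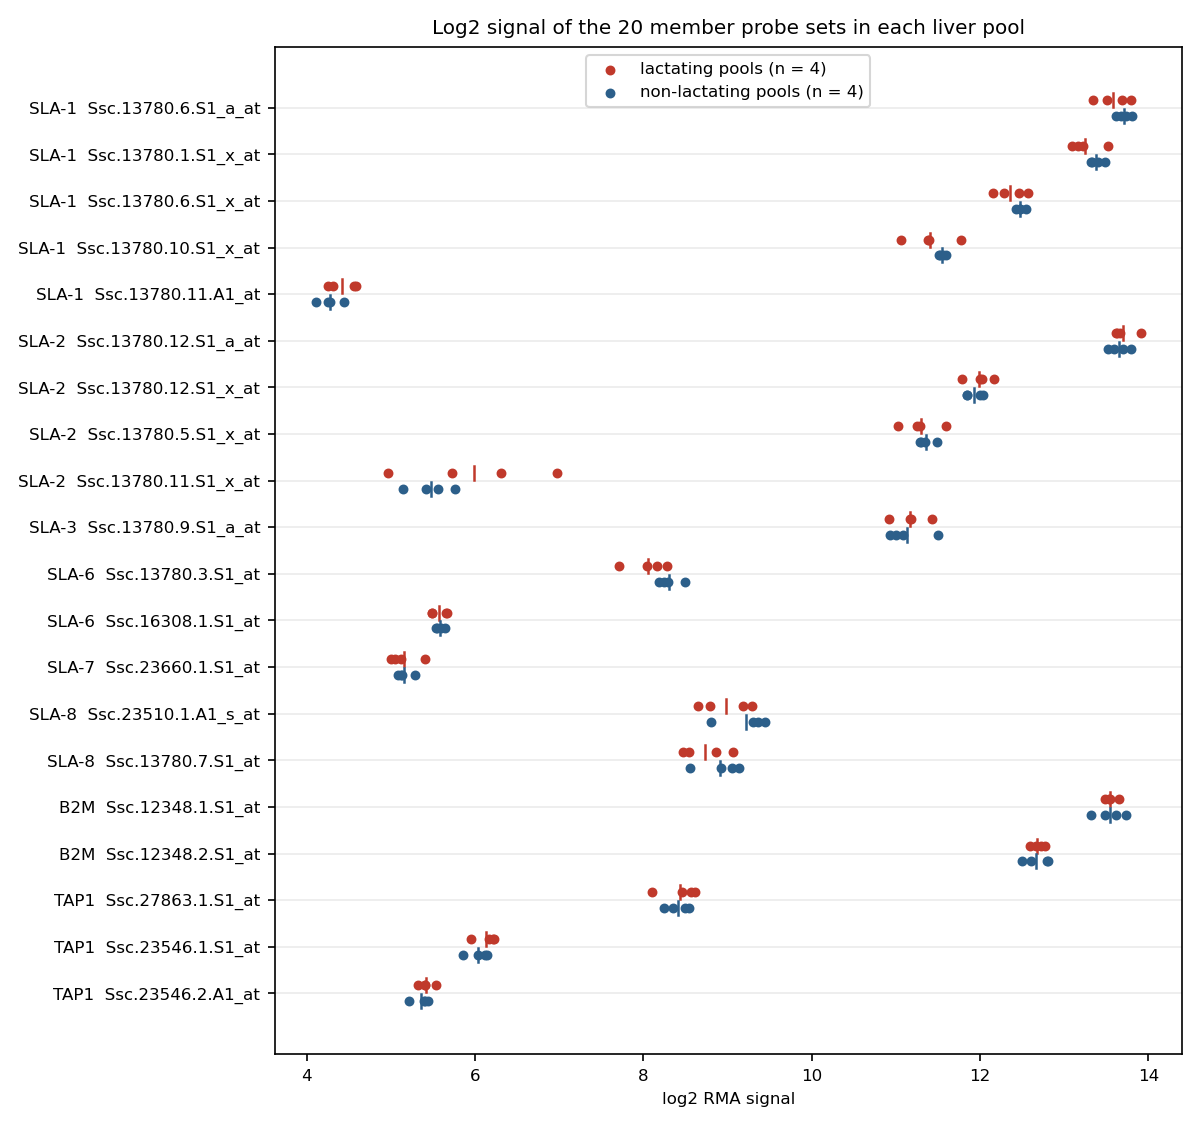
Log2 RMA signal (horizontal axis) of each member probe set (rows) in the 4 lactating pools (red, upper) and the 4 non-lactating pools (blue, lower), with a tick at each group mean. The groups overlap in every row, and the dim SLA-2 probe set Ssc.13780.11.S1_x_at has the widest spread, from 4.96 to 6.97 in lactating pools.

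Array-wide facts that touch these values were few. Mean signals of the arrays lay between 6.78 and 6.79, and log2 signals between 2.75 and 15.2. The mean 3′ minus 5′ log2 signal of the array's control transcripts, a sign of RNA integrity, was 3.75 ± 0.29 in lactating pools (range 3.34 to 4.00) and 4.47 ± 0.40 in non-lactating pools (range 4.14 to 5.02; SD, n = 4 each), with no overlap, so that it and the group cannot be fully told apart. With that value as a covariate 0 of the 23999 probe sets passed the threshold (limma, 2474 at an unadjusted p below 0.05), so every call given below is lost in that fit. Hepatocyte markers were as a liver sample requires, with ALB at a mean log2 signal of 15.2. In RNA from whole tissue, fewer cells of a type and less RNA per cell cannot be told apart.

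Cross-hybridisation limits what a class I probe set can be called. Class I genes are close relatives with many alleles, and the array's own suffixes mark 6 members as cross-reacting (_x_at), 1 as shared by several genes of a family (_s_at) and 3 as shared by transcripts of 1 gene (_a_at), which leaves 10 plain ones. The deposited table lists transcripts matched by at least 9 probes of a set for 15 of the 20 members. The 4 bright SLA-1 probe sets matched 24 to 55 listed transcripts, of which 22 to 51 were named SLA-1. SLA-2 probe sets matched far fewer, and 3 of the 4 matched transcripts named SLA-B. SLA-6 Ssc.13780.3.S1_at matched 22 transcripts named SLA-6, and the SLA-3, SLA-7 and SLA-8 probe sets with named matches pointed to their own locus in 4, 2 and 3 transcripts. A single pig carries few of these alleles, so a difference between pools on such a probe set can be one of alleles as well as of amount, and the part of each was not tested. Levels are not compared between probe sets, whose probes bind with different strength. No probe, promoter or protein sequences were used here. Positions are as deposited, from an alignment column that names neither the genome assembly in words nor the exons covered.

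B2M, the light chain shared by all class I molecules, had nearly equal means in the groups. Ssc.12348.1.S1_at read 13.48, 13.65, 13.53 and 13.54 in lactating pools 1 to 4, against 13.62, 13.73, 13.49 and 13.32 in non-lactating pools 1 to 4. The lactating pools lay inside the range of the non-lactating ones. The difference was 0.01 ± 0.10 (SE, limma, 95% interval -0.21 to 0.22, adjusted p = 0.974). Ssc.12348.2.S1_at read 12.59, 12.77, 12.72 and 12.66 in lactating pools, against 12.81, 12.79, 12.60 and 12.50 in non-lactating pools. Here too the non-lactating pools were the wider group, with pools 1 and 2 high and pool 4 low on both probe sets, and the difference was 0.01 ± 0.09 (limma, 95% interval -0.19 to 0.21, adjusted p = 0.961). The first probe set aligned at chr1:132889951-132896228 on the plus strand and again at chr1:132684568-132690844 on the minus strand, and the RefSeq gene table for Sscrofa11.1 lists 2 genes with the symbol B2M on chromosome 1. Signal from these 2 copies cannot be told apart on that probe set. Ssc.12348.2.S1_at had 1 listed alignment, at chr1:132684486-132685607 on the minus strand, and whether it also binds the other copy was not tested. The deposited alignment percents were low, 61.96 for the first and 47.87 for the second.

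SLA-1, a classical heavy chain, had 4 bright probe sets whose means were all slightly lower in lactating pools, none past the threshold. Ssc.13780.6.S1_a_at read 13.51, 13.34, 13.69 and 13.79 in lactating pools, against 13.61, 13.67, 13.80 and 13.74 in non-lactating pools. Ssc.13780.1.S1_x_at read 13.09, 13.16, 13.22 and 13.52 in lactating pools, against 13.32, 13.33, 13.48 and 13.40 in non-lactating pools. On both, lactating pools 1 and 2 lay below every non-lactating pool and lactating pool 4 lay near or above the top of them. Ssc.13780.6.S1_x_at read 12.15, 12.28, 12.46 and 12.57 in lactating pools, against 12.43, 12.47, 12.55 and 12.48 in non-lactating pools. Ssc.13780.10.S1_x_at, designed from a clone annotated as a nonfunctional SLA-1, read 11.06, 11.39, 11.38 and 11.77 in lactating pools, against 11.52, 11.59, 11.51 and 11.56 in non-lactating pools. Lactating pool 4 was the highest of all 8 on the last 3 of these probe sets, and lactating pool 1 the lowest.

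The 4 differences of bright SLA-1 probe sets were close to each other, as probe sets that match the same transcripts may be. They were -0.13 ± 0.10 (95% interval -0.36 to 0.11) for Ssc.13780.6.S1_a_at and -0.14 ± 0.10 (95% interval -0.36 to 0.08) for Ssc.13780.1.S1_x_at. They were -0.12 ± 0.10 (95% interval -0.34 to 0.10) for Ssc.13780.6.S1_x_at and -0.15 ± 0.13 (95% interval -0.44 to 0.14) for Ssc.13780.10.S1_x_at, with limma adjusted p-values of all 4 between 0.462 and 0.566. Leaving out 1 pool at a time moved them between -0.27 and -0.03, with the largest shifts without lactating pool 1, 2 or 4. Overlapping matches mean that these are not 4 independent readings of SLA-1. With the 3′ minus 5′ value as a covariate they became -0.36 to -0.30, with adjusted p-values of 0.438 to 0.556. Ssc.13780.6.S1_a_at aligned on the minus strand at chr7:24529377-24532917 and at chr7:24459995-24463510, within the span chr7:24459994-24532972 given for Ssc.13780.1.S1_x_at. The fifth SLA-1 probe set, Ssc.13780.11.A1_at, aligned to the strand opposite to SLA-1 and was dim, with no listed transcript matched by at least 9 probes. It read 4.58, 4.56, 4.31 and 4.25 in lactating pools, against 4.25, 4.44, 4.28 and 4.11 in non-lactating pools. Lactating pools 1 and 2 were the highest of the 8, in contrast to their place on the bright SLA-1 probe sets, and the difference was 0.15 ± 0.10 (limma, 95% interval -0.08 to 0.39, adjusted p = 0.430).

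SLA-2, the second classical heavy chain, was bright on 3 of its 4 probe sets, and none of the 3 differed by more than 0.06 in either direction. Ssc.13780.12.S1_a_at, at chr7:24395939-24397073 on the plus strand, read 13.66, 13.91, 13.61 and 13.63 in lactating pools, against 13.79, 13.70, 13.52 and 13.59 in non-lactating pools. Ssc.13780.12.S1_x_at read 11.78, 12.17 and 12.02 in lactating pools 1, 2 and 4, against 12.03, 11.85 and 11.85 in non-lactating pools 1, 3 and 4, and it read 12 to the nearest 0.01 in lactating pool 3 and non-lactating pool 2. Lactating pool 2 was the highest of the 8 on both. The differences were 0.05 ± 0.09 (limma, 95% interval -0.16 to 0.26, adjusted p = 0.815) on the first and 0.06 ± 0.09 (limma, 95% interval -0.15 to 0.27, adjusted p = 0.767) on the second. Without lactating pool 2 the first became -0.02. The title of its target in the deposited table names SLA-8, while the matched transcripts are named SLA-2 in 8 cases and SLA-B in 3, so its locus is uncertain.

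Ssc.13780.5.S1_x_at matched 5 transcripts, all named SLA-2, but aligned on the minus strand at chr7:24481156-24532862. That lies within the span given for SLA-1 Ssc.13780.1.S1_x_at, so its locus is uncertain too. The probe set read 11.03, 11.25, 11.29 and 11.60 in lactating pools, against 11.49, 11.30, 11.35 and 11.29 in non-lactating pools. Its pattern was that of SLA-1, with lactating pool 1 lowest and lactating pool 4 highest of the 8, and the difference was -0.06 ± 0.12 (limma, 95% interval -0.32 to 0.20, adjusted p = 0.811). The fourth SLA-2 probe set, Ssc.13780.11.S1_x_at, matched 1 transcript, an SLA-B allele. Its alignment, chr7:24462361-24463445 on the minus strand, has the coordinates of the SLA-1 probe set Ssc.13780.11.A1_at on the other strand. Its locus is therefore uncertain as well. This probe set varied more between pools than 99.1% of all probe sets. It read 5.72, 6.31, 4.96 and 6.97 in lactating pools, against 5.42, 5.76, 5.56 and 5.14 in non-lactating pools. Lactating pool 4 was the highest and lactating pool 3 the lowest of the 8, so the lactating group spanned the whole non-lactating one. Its mean was 5.99 ± 0.86 in lactating pools and 5.47 ± 0.26 in non-lactating pools (SD, n = 4 each), a difference of 0.52 ± 0.35 with the widest interval of the members (limma, 95% interval -0.27 to 1.31, adjusted p = 0.434). Leaving out 1 pool at a time moved it between 0.19 and 0.86 (adjusted p = 0.105 at the upper end, without lactating pool 3), and with the 3′ minus 5′ value as a covariate it was 0.03 ± 0.54 (limma, adjusted p = 0.989).

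SLA-3, the third classical heavy chain, had a single probe set, Ssc.13780.9.S1_a_at, at chr7:24379101-24380839 on the plus strand. It read 11.17, 11.43, 11.18 and 10.92 in lactating pools, against 11.50, 11.09, 10.93 and 11.00 in non-lactating pools. Non-lactating pool 1 and lactating pool 2 were high, and the groups overlapped almost wholly. The difference was 0.05 ± 0.14 (limma, 95% interval -0.27 to 0.37, adjusted p = 0.900), and with the 3′ minus 5′ value as a covariate it was 0.49 ± 0.13 (adjusted p = 0.340).

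**Figure D2:**
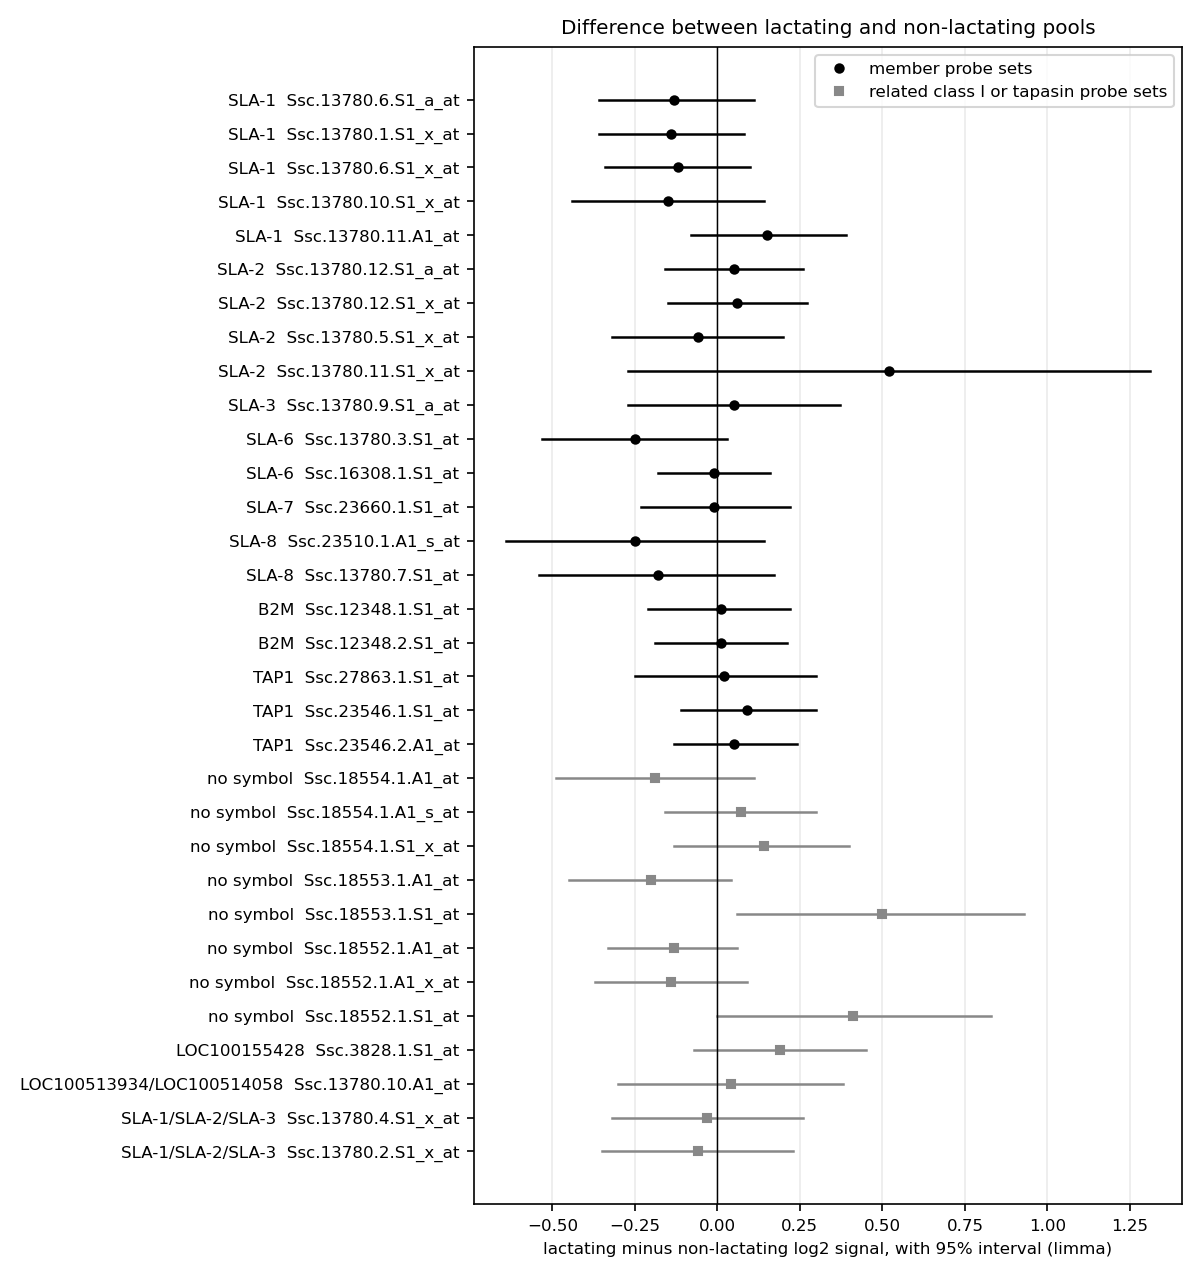
Lactating minus non-lactating log2 signal (horizontal axis) with its 95% interval from limma for the 20 member probe sets (black circles) and the 12 related probe sets (grey squares). Every member's interval includes 0, the member estimates run from -0.25 to 0.52, and the only intervals that lie wholly at or above 0 are those of 2 related probe sets without a symbol, Ssc.18553.1.S1_at and Ssc.18552.1.S1_at.

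The non-classical genes SLA-6, SLA-7 and SLA-8 had 5 probe sets, all with a lower mean in lactating pools, with a median difference of -0.18 and none past the threshold. SLA-6 Ssc.13780.3.S1_at, at chr7:27604048-27608114 on the minus strand, read 7.71, 8.28, 8.16 and 8.04 in lactating pools, against 8.49, 8.25, 8.18 and 8.29 in non-lactating pools. Of the lactating pools, 3 lay below all non-lactating pools, and pool 2 lay among them. The difference, -0.25 ± 0.12, had the lowest p of the 20 members (limma, 95% interval -0.53 to 0.03, adjusted p = 0.263), and it was -0.14 without lactating pool 1 and -0.09 ± 0.19 with the 3′ minus 5′ covariate. The other SLA-6 probe set, Ssc.16308.1.S1_at, is annotated to the class I sequence PD6 and lies at chr7:27604642-27608455 on the same strand. It read 5.49, 5.49, 5.65 and 5.66 in lactating pools, against 5.55, 5.60, 5.64 and 5.53 in non-lactating pools. The lactating pools lay on both sides of the non-lactating ones, and the difference was -0.01 ± 0.07 (limma, 95% interval -0.18 to 0.16, adjusted p = 0.961).

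SLA-7 Ssc.23660.1.S1_at, at chr7:27593567-27596886 on the minus strand, was dim and read 5.0, 5.05, 5.12 and 5.41 in lactating pools, against 5.08, 5.13, 5.12 and 5.28 in non-lactating pools. Pool 4 was the highest of its group in both, and the difference was -0.01 ± 0.10 (limma, 95% interval -0.23 to 0.22, adjusted p = 0.984). SLA-8 Ssc.13780.7.S1_at, at chr7:27580503-27583895 on the plus strand, read 8.86, 9.06, 8.47 and 8.54 in lactating pools, against 9.05, 9.13, 8.55 and 8.92 in non-lactating pools. SLA-8 Ssc.23510.1.A1_s_at, aligned to the same strand at chr7:27583636-27583895, read 9.18, 9.29, 8.65 and 8.79 in lactating pools, against 9.36, 9.44, 8.80 and 9.30 in non-lactating pools. Pools 1 and 2 of each group were high and pool 3 of each was the lowest on both SLA-8 probe sets. Their differences were -0.18 ± 0.16 (limma, 95% interval -0.54 to 0.17, adjusted p = 0.559) and -0.25 ± 0.18 (limma, 95% interval -0.64 to 0.14, adjusted p = 0.454). With the 3′ minus 5′ value as a covariate they were 0.13 ± 0.22 and 0.09 ± 0.25.

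TAP1, a chain of the peptide transporter, had 3 probe sets with small positive differences. Ssc.27863.1.S1_at, the brightest, read 8.56, 8.61, 8.46 and 8.10 in lactating pools, against 8.49, 8.35, 8.24 and 8.54 in non-lactating pools. Lactating pool 4 was the lowest of the 8 and lactating pools 1 and 2 the highest. The difference was 0.02 ± 0.12 (limma, 95% interval -0.25 to 0.30, adjusted p = 0.942), and with the 3′ minus 5′ value as a covariate it was 0.34 ± 0.14 (adjusted p = 0.468). It aligned on the minus strand at chr7:29438471-29439964 and chr7:29333363-29334856.

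The second TAP1 probe set, Ssc.23546.1.S1_at, was dimmer and read 5.95, 6.21, 6.16 and 6.23 in lactating pools, against 5.86, 6.03, 6.14 and 6.12 in non-lactating pools. Pool 1 was the lowest of each group, and the difference was 0.09 ± 0.09 (limma, 95% interval -0.11 to 0.30, adjusted p = 0.610). The third, Ssc.23546.2.A1_at, aligned to the opposite strand and read 5.41, 5.41, 5.32 and 5.53 in lactating pools, against 5.21, 5.41, 5.39 and 5.44 in non-lactating pools. Only lactating pool 4 lay above the non-lactating range, and the difference was 0.05 ± 0.08 (limma, 95% interval -0.13 to 0.24, adjusted p = 0.757). The bright and the second probe set did not follow each other over the pools (Pearson r = -0.43 between deviations from the group means, n = 8 pools), so the probe sets of TAP1 give no single pattern for the gene.

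Tapasin, which bridges TAP and the empty class I molecule, was measured under a provisional symbol, LOC100155428, by Ssc.3828.1.S1_at. The RefSeq table gives that gene's identifier the symbol TAPBP. It read 9.29, 9.28, 8.79 and 8.95 in lactating pools, against 8.96, 8.81, 8.86 and 8.90 in non-lactating pools. Lactating pools 1 and 2 stood above all others, while pools 3 and 4 lay near the non-lactating range, and the difference was 0.19 ± 0.12 (limma, 95% interval -0.07 to 0.45, adjusted p = 0.371).

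Of the other related probe sets, 2 carry the symbols SLA-1, SLA-2 and SLA-3 together. Ssc.13780.4.S1_x_at matched 71 listed transcripts, of which 37 were named SLA-3, and read 10.71, 11.05, 11.01 and 11.40 in lactating pools, against 11.16, 10.96, 11.08 and 11.08 in non-lactating pools. Ssc.13780.2.S1_x_at matched 79, of which 43 were named SLA-1, and read 10.64, 11.04, 10.99 and 11.34 in lactating pools, against 11.14, 11.02, 11.03 and 11.04 in non-lactating pools. Both resembled SLA-1, with lactating pool 1 lowest and lactating pool 4 highest, and their differences were -0.03 ± 0.13 (adjusted p = 0.935) and -0.06 ± 0.13 (adjusted p = 0.859, limma).

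The related probe sets without a symbol were designed from single class I alleles, and 2 of them had an unadjusted p below 0.05. Ssc.18553.1.S1_at, from an SLA-2 allele, read 4.87, 5.0, 5.81 and 5.64 in lactating pools, against 4.93, 4.76, 4.88 and 4.75 in non-lactating pools. Lactating pools 3 and 4 were high, while lactating pools 1 and 2 lay close to the non-lactating ones. The difference was 0.50 ± 0.19 (limma, 95% interval 0.06 to 0.93, adjusted p = 0.159). Ssc.18552.1.S1_at, from another SLA-2 allele, read 4.69, 5.06, 5.0 and 5.47 in lactating pools, against 4.79, 4.18, 4.85 and 4.73 in non-lactating pools, a difference of 0.41 ± 0.18 (limma, adjusted p = 0.217). Lactating pool 4 was high and non-lactating pool 2 low. Both lay near the dim end of the array, and whether the alleles they were made from occur in these sows was not tested. The remaining 7 related probe sets differed by -0.20 to 0.14, with none at an unadjusted p below 0.05.

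Class I probe sets varied among pools of the same group in patterns that differed between probe sets of 1 symbol. Deviations from the group means were compared over the 8 pools as a description. All points share the same arrays and RNA pools, and many of the probe sets share matching transcripts. The 4 bright SLA-1 probe sets moved together (Pearson r of 0.52 to 0.90) and moved with the pair carrying 3 symbols (r of 0.41 to 0.96). SLA-2 Ssc.13780.5.S1_x_at followed that pair closely, with r = 0.96 to each. The brightest SLA-2 probe set, Ssc.13780.12.S1_a_at, ran against the bright SLA-1 probe sets, with r of -0.86 to -0.05, whereas its pair mate Ssc.13780.12.S1_x_at gave -0.36 to 0.51. It ran with SLA-3 and both SLA-8 probe sets, at r = 0.84 with SLA-3 and 0.79 and 0.86 with SLA-8, beside 0.53, 0.27 and 0.39 for the pair mate. SLA-3 ran against bright SLA-1 as well, with r of -0.81 to -0.35. The 3′ minus 5′ value moved with some of these patterns. Its own deviations had r = 0.91 with SLA-3, 0.80 with TAP1 Ssc.27863.1.S1_at, 0.66 with the brightest SLA-2 probe set, 0.55 and 0.57 with SLA-8, and -0.73 to -0.50 with bright SLA-1, over the same 8 pools. Probe sets of 1 gene could differ, with -0.65 and -0.77 for TAP1 Ssc.23546.1.S1_at and Ssc.23546.2.A1_at. The pair mate of the brightest SLA-2 probe set gave 0.23. SLA-6 gave 0.41 on Ssc.13780.3.S1_at and -0.69 on Ssc.16308.1.S1_at. Lactating pool 4, high for SLA-1 and low for SLA-3 and TAP1 Ssc.27863.1.S1_at, had the lowest 3′ minus 5′ value of all, 3.34. The part of RNA quality in the patterns was not tested.

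**Figure D3:**
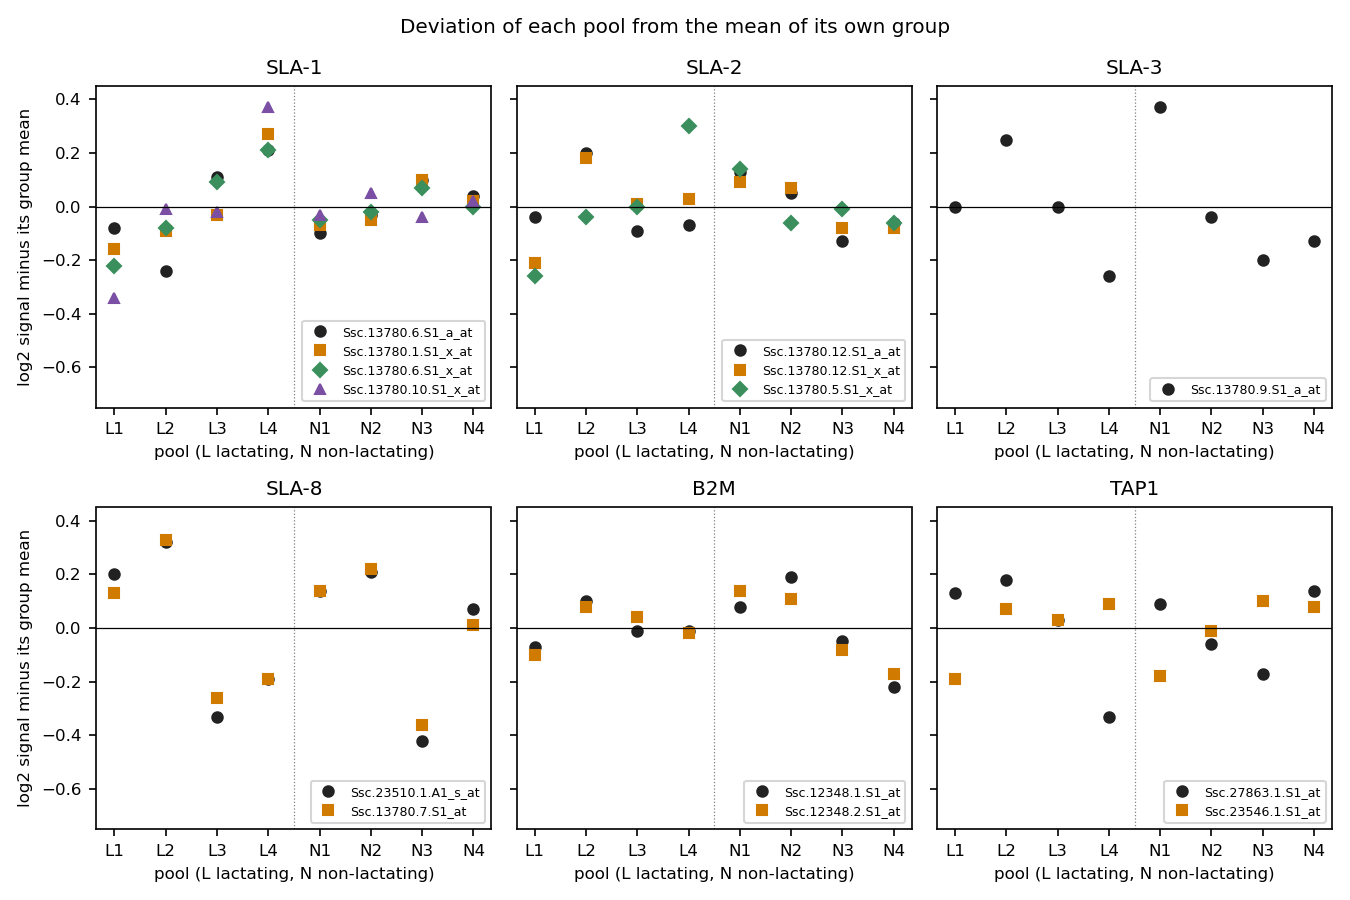
Log2 signal minus the mean of the pool's own group (vertical axis) in lactating pools 1 to 4 (L1 to L4, left of the dotted line) and non-lactating pools 1 to 4 (N1 to N4, right), for the brighter probe sets of 6 class I and loading genes. SLA-1 is low in L1 and high in L4, whereas the brightest SLA-2 probe set and SLA-8 are highest in L2, and the TAP1 probe set Ssc.27863.1.S1_at is lowest in L4.

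The pairs for B2M and SLA-8 agreed best within a gene, with r = 0.93 and r = 0.99. The B2M probe sets followed the SLA-2 pair Ssc.13780.12 (r of 0.64 to 0.80) and showed little relation to bright SLA-1 (r of -0.40 to 0.18). SLA-7 moved with bright SLA-1 (r of 0.73 to 0.88), and TAP1 Ssc.27863.1.S1_at moved against it (r of -0.88 to -0.70). The SLA-6 pair was unrelated (r = 0.03). With 8 pools and 2 group means removed, such values are loosely determined. The standard deviation between pools was larger in the lactating group for 16 of 20 members, 80.0%, beside 53.5% of all probe sets. This held for all 5 SLA-1 and all 4 SLA-2 probe sets, but not for SLA-3 or for either B2M probe set, and members that share transcripts do not count separately.

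**Figure D4:**
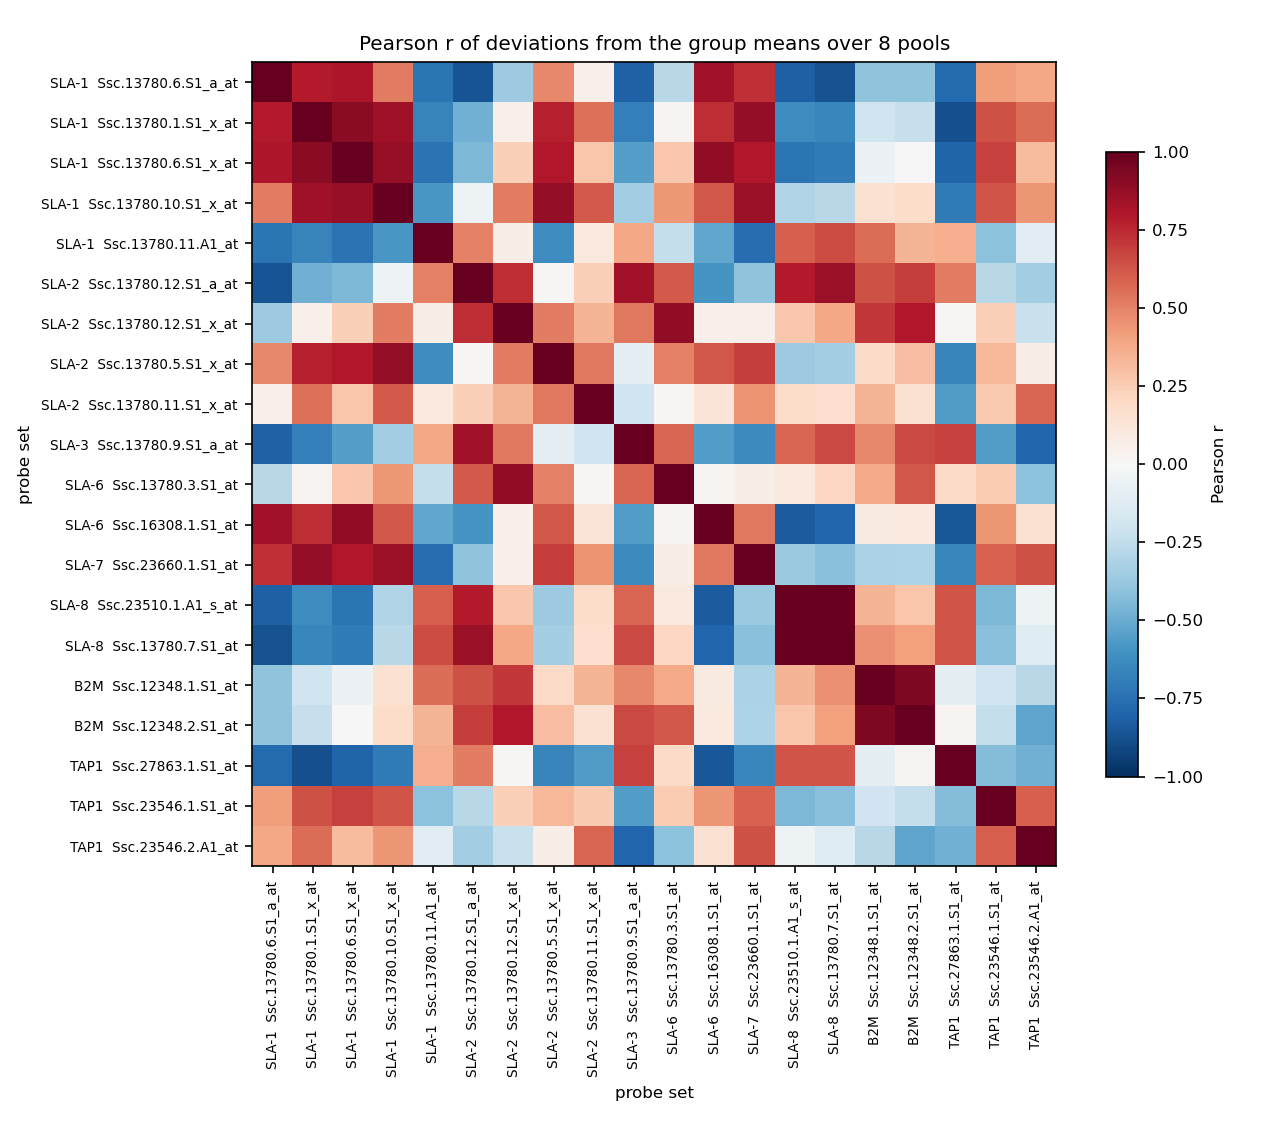
Pearson correlation (colour scale, -1 to 1) between the 20 member probe sets (rows and columns) of their deviations from the group means over the 8 pools. Red blocks join the bright SLA-1 probe sets, the SLA-8 pair and the B2M pair, and the blue area between SLA-1 and SLA-8 holds values of -0.87 to -0.28.

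The genes whose deviations were most like those of a member were named for 3 probe sets, by the highest r over the 8 pools among all genes with 1 symbol. For the SLA-2 probe set Ssc.13780.12.S1_a_at they were FGL2, SRSF2 and PYM1 (r = 0.97 each), and LOC100522485 and THBS3 (r = 0.96 each). For B2M they were LOC100526241 (r = 0.98), then PAQR7, IFIT3 and MARCH5 (r = 0.97 each) and LOC100156065 (r = 0.96). IFIT3, an interferon-induced gene, differed by -0.27 ± 0.18 between the groups (limma, adjusted p = 0.425). For TAP1 Ssc.27863.1.S1_at they were MTMR2 and TTF1 (r = 0.98 each), and TRNP1, NEK4 and CLK3 (r = 0.97 each). Each is the extreme of 8144 genes over 8 pools, and high values arise in such a search.

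The rest of the pathway was read gene by gene, each gene by its brightest probe set, beside 6.13% of all genes that passed the threshold as higher and 2.52% as lower in lactating pools. A listed gene is called measured here only if a probe set carried its symbol alone. Probe sets for the same gene under another symbol, several symbols or none were not searched for. Of the peptide loading helpers and trimming enzymes, 6 of 11 were measured, 1 was higher and none lower, with a median difference of 0.28 beside 0.01 over all genes. The 6 were all helpers, and no listed trimming enzyme (ERAP1, ERAP2 or LNPEP) was measured. The gene that passed was SEC61A1, a subunit of the endoplasmic reticulum translocon. It read 10.97, 11.23, 10.86 and 11.11 in lactating pools, against 10.24, 10.55, 10.45 and 10.26 in non-lactating pools, so that all lactating pools lay higher. The difference was 0.67 ± 0.11 (limma, adjusted p = 0.0127), while its 2 dim probe sets differed by 0.06 and 0.02. With the 3′ minus 5′ covariate it was 0.53 ± 0.16 and the call was lost (limma, adjusted p = 0.368). PDIA3, the thiol oxidoreductase of the loading complex, differed by 0.31 ± 0.11 on its brightest probe set (adjusted p = 0.129) and by 0.88 ± 0.18 on a dimmer one (limma, adjusted p = 0.0227). SEC61B differed by 0.30 ± 0.09 (adjusted p = 0.0686), the chaperone HSPA5 by 0.25 ± 0.10 (adjusted p = 0.167), and the lectin chaperone calreticulin (CALR) by 0.25 ± 0.19 (limma, adjusted p = 0.474). Calnexin (CANX) differed by -0.01 ± 0.08 on its brightest probe set, by 0.07 ± 0.12 on another, and by -0.47 ± 0.09 on a dimmer one (mean 7.64, limma, adjusted p = 0.0214). These helpers also serve secreted proteins in general.

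Immunoproteasome subunits and activator chains, which shape the peptides that class I receives, were measured for 5 of 5 genes, and none passed the threshold. PSMB8 had the lowest p, with 6.99, 7.21, 6.53 and 7.36 in lactating pools, against 6.47, 6.52, 6.37 and 6.83 in non-lactating pools. Lactating pools 1, 2 and 4 lay above all non-lactating pools and lactating pool 3 lay among them, and the difference was 0.47 ± 0.17 (limma, adjusted p = 0.131). PSMB10 differed by 0.17 ± 0.09 (adjusted p = 0.288) and PSME2 by -0.15 ± 0.09 (limma, adjusted p = 0.345). The median of the 5 was 0.06.

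Of the regulators of class I transcription, 8 of 17 were measured, 1 was lower and none higher. IRF8, an interferon regulatory factor of myeloid and B cells, read 8.06, 8.03, 8.03 and 7.79 in lactating pools, against 8.82, 8.44, 8.30 and 8.72 in non-lactating pools. All lactating pools lay lower, by 0.59 ± 0.12 on average (a difference of -0.59, limma, adjusted p = 0.0244). The call was kept in 4 of 8 fits that left out a pool, with an adjusted p of at most 0.0652 in the others (those without lactating pool 3 or 4 or non-lactating pool 1 or 4). With the 3′ minus 5′ covariate the difference was -0.23 ± 0.12 and the call was lost (limma, adjusted p = 0.555). RELA differed by 0.24 ± 0.07 (adjusted p = 0.0775), NFYB by -0.27 (adjusted p = 0.349) and USF2 by 0.10 (limma, adjusted p = 0.624).

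Of the interferon receptors and signalling genes, 9 of 11 were measured and none passed the threshold. SOCS1, an inhibitor of JAK kinases, differed by 0.93 ± 0.29 (adjusted p = 0.0851), TYK2 by -0.31 ± 0.10 (adjusted p = 0.0858) and STAT2 by 0.21 ± 0.10 (limma, adjusted p = 0.242). For SOCS1, non-lactating pools 1 and 2 read 5.28 and 5.34, and pools 3 and 4 read 6.57 and 6.44. Its lactating pools ran from 6.57 to 7.05. A dimmer SOCS1 probe set differed by 0.32 (limma, adjusted p = 0.214), and dimmer ones of TYK2 by 0.08, -0.06 and -0.12. Of 35 interferon-stimulated genes, 15 were measured, and all 15 had a lower mean in lactating pools, with a median of -0.27. Of all 8144 genes, 3860 had a lower mean. Genes induced by the same signal can move together, so these 15 do not count separately. None of the 15 passed the threshold and 2 had an unadjusted p below 0.05 (limma), beside 27.5% of all genes. RSAD2, an antiviral enzyme, read 6.98, 6.45, 7.01 and 6.36 in lactating pools, against 7.70, 8.30, 7.49 and 6.96 in non-lactating pools, with a slight overlap and a difference of -0.91 ± 0.26 (limma, adjusted p = 0.0657). IFIT1, another interferon-induced gene, differed by -0.44 on its brightest probe set (adjusted p = 0.311) and by -0.61 (adjusted p = 0.222) and -0.66 (adjusted p = 0.0158, limma) on 2 dimmer ones. MX2 differed by -0.20 ± 0.07 (adjusted p = 0.125) and IFI44L by -0.38 ± 0.18 (limma, adjusted p = 0.233). Dimmer probe sets differed by -0.00 for MX2, -0.01 for DDX58, 0.08 for IRF7 and -0.57 for IFI44L. Those of IFIT2 differed by -0.15 and -0.26, and those of GBP1 by -0.11 and -0.19. Class I-like molecules were measured for 3 of 7 genes, PROCR (-0.44 ± 0.15, adjusted p = 0.120), CD1D (-0.06, adjusted p = 0.787) and AZGP1 (-0.00, adjusted p = 0.998, limma).

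Class II presentation genes were lower in lactating livers in 4 of 6 measured cases, of 10 listed, with a median of -0.52. Class II heterodimers show extracellular peptides to CD4+ T cells and are made mainly by antigen-presenting cells. SLA-DRB1 read 9.32, 9.53, 9.45 and 9.23 in lactating pools, against 10.20, 9.85, 10.17 and 10.10 in non-lactating pools, with every lactating pool lower. Its difference was -0.70 ± 0.10 (limma, adjusted p = 0.0116), those of SLA-DQB1 and SLA-DRA were -0.67 ± 0.10 (adjusted p = 0.0127) and -0.62 ± 0.10 (adjusted p = 0.0148), and that of SLA-DOA was -0.43 ± 0.11 (limma, adjusted p = 0.0489). The first 3 passed in all 8 fits that left out a pool, and SLA-DOA in 1 of them, with an adjusted p of up to 0.128. With the 3′ minus 5′ covariate all 4 calls were lost, at -0.51 for SLA-DRB1, -0.60 for SLA-DQB1, -0.48 for SLA-DRA and -0.30 for SLA-DOA (limma, adjusted p-values of 0.343 to 0.584). Of 7 other SLA-DRB1 probe sets, which can also cross-react, 1 passed the threshold, at -0.70 ± 0.11 (limma, adjusted p = 0.0134), and differences of the rest ran from -1.97 to 0.07. SLA-DMB differed by -0.29 (adjusted p = 0.0687) and the invariant chain CD74 by -0.28 (limma, adjusted p = 0.481). A dimmer SLA-DOA probe set differed by -0.00 ± 0.08 (limma, adjusted p = 0.993). Dimmer probe sets of SLA-DMB (-0.08) and CD74 (-0.04) did not pass either. Whether class I and class II differ from each other in their response was not tested.

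**Figure D5:**
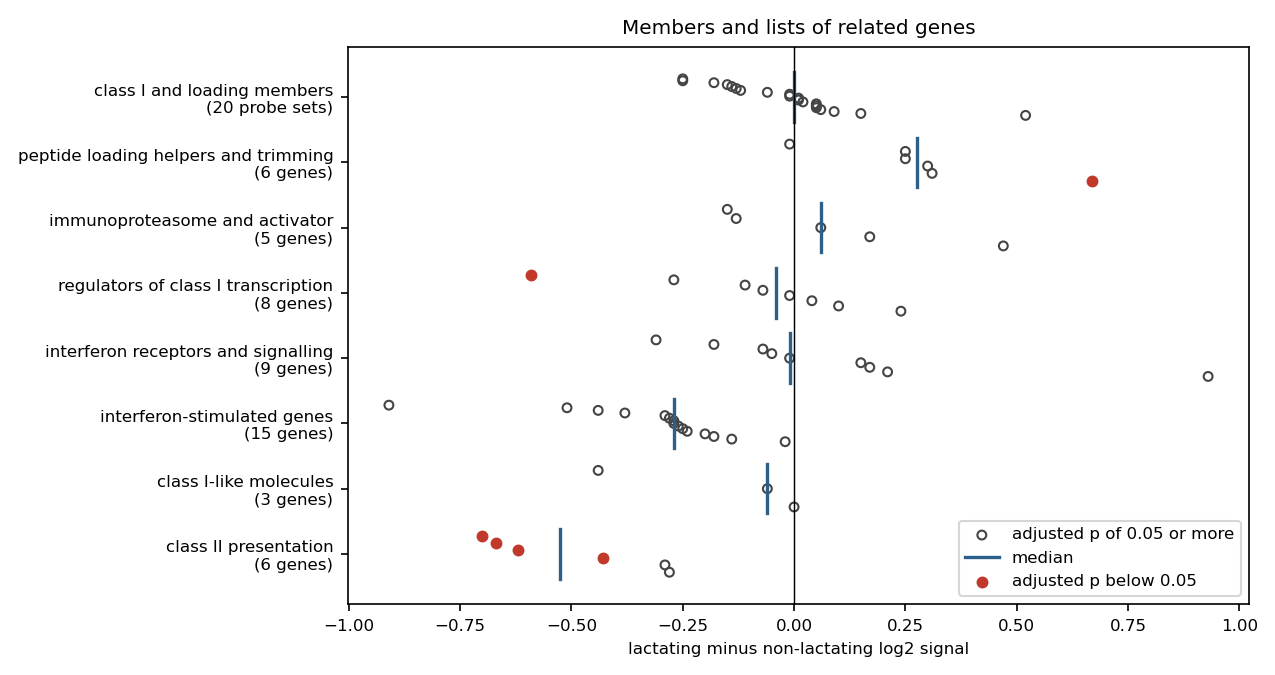
Lactating minus non-lactating log2 signal (horizontal axis) of the 20 member probe sets and of each measured gene in 7 lists of related genes (rows), with filled red points for an adjusted p below 0.05 (limma), open points for the rest and a bar at each median. The members cluster around 0.00, 4 of 6 class II genes are filled and lie left of 0, and all 15 interferon-stimulated genes are open and have negative differences.

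Some markers of T and NK, endothelial and stellate cells were lower in lactating pools, and their part in the class I values was not tested. T and NK cell markers were measured for 12 of 16 genes, and 2 were lower in lactating pools. CD8A, the co-receptor that binds class I on T cells, differed by -0.60 ± 0.13 (adjusted p = 0.0279) and KLRK1, an activating receptor for class I-like ligands, by -0.77 ± 0.17 (limma, adjusted p = 0.0281). These 2 calls were kept in 3 and 4 of the 8 fits that left out a pool, with adjusted p-values of up to 0.0704 and 0.0834, and both were lost with the 3′ minus 5′ covariate, at -0.35 for CD8A and -0.66 for KLRK1 (limma, adjusted p-values of 0.547 and 0.462). The other T and NK markers did not pass, among them CD3D at -0.07, CD4 at -0.06 and GZMB at 0.22, and the median of the list was -0.09. The log2 of the summed T and NK signal was 9.48 to 9.65 in lactating pools and 9.76 to 9.97 in non-lactating pools. The same sum over 10 of 12 endothelial markers, of which 4 were lower, was 11.50 to 11.62 in lactating pools and 11.80 to 11.90 in non-lactating pools. Of these 4, PECAM1 passed in all 8 fits that left out a pool, TEK in 5, CDH5 in 2 and CLDN5 in 1, and none passed with the 3′ minus 5′ covariate. Dimmer probe sets of PECAM1 (-0.11), CDH5 (0.00) and TEK (-0.05 and -0.08) did not pass. The other endothelial markers did not pass either, at -0.15 to -0.03, among them STAB1 at -0.15 and LYVE1 at -0.08, and the median of the list was -0.15. For Kupffer cells and macrophages, with 10 of 12 markers measured and none past the threshold, the sum was 13.15 to 13.21 in lactating pools and 13.20 to 13.38 in non-lactating pools. CD5L, the brightest of them (mean 12.42), weighs most in that sum. Of the 10, 3 had a higher and 7 a lower mean in lactating pools, with a median of -0.13. CD163 was higher in every lactating pool, by 0.24 ± 0.08 (limma, adjusted p = 0.0921). Among the 7 lower ones, AIF1 differed by -0.26 ± 0.10 (adjusted p = 0.131) and TYROBP by -0.23 ± 0.11 (limma, adjusted p = 0.236). CD5L differed by -0.10 ± 0.07 (limma, adjusted p = 0.449), and by 0.30 on a dimmer probe set. Of 8 B and plasma cell markers 3 were measured, none past the threshold. Of the other marker lists, 2 of 8 measured stellate cell and 1 of 5 measured hepatocyte genes were lower, and none of 4 cholangiocyte and 4 neutrophil genes passed. The stellate genes were DCN (-0.88 ± 0.15, adjusted p = 0.0141) and BGN (-0.45 ± 0.08, limma, adjusted p = 0.0185). They passed in 8 and 6 of the 8 fits that left out a pool, and neither passed with the 3′ minus 5′ covariate. The median of the stellate list was -0.45, with LUM (0.11) and COL1A1 (0.02) above 0. Its sum was 13.07 to 13.68 in lactating pools and 13.70 to 13.89 in non-lactating pools. No listed erythrocyte marker was found under its symbol alone, which does not show that the array lacks them.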

How the data were processed

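Liver RNA of 8 pools was measured on Affymetrix Porcine arrays. The authors deposited log2 signals made with RMA in Affymetrix Expression Console, per the submitters' processing notes, which give no versions. RMA subtracts background, gives all arrays the same quantiles and combines probes into 1 value a set. Such normalisation hides a shift shared by all genes. The deposited table also holds, per the file headers, an unadjusted p-value from a 2-tailed equal-variance test. Of 24123 probe sets, 124 controls were left out. Lactating minus non-lactating pools were fitted with limma 3.58.1 (lmFit and eBayes, no trend, not robust) in R 4.3.3 (data.table version 1.17.8), 2-sided. Benjamini-Hochberg adjustment ran over 23999 probe sets, and a change meant an adjusted p below 0.05. The ± beside a difference is limma's moderated SE.

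Each gene of a list was read by its brightest probe set. Every member is named, and of each list all genes past the threshold and up to 3 others with the smallest p. CALR, CANX and IFIT1 are named beyond that rule, as are genes named only for a dimmer probe set. The members and lists were chosen with earlier results of these data known. In the marker lists, genes related to class I and examples of the others are named. Pool numbers of the 2 groups do not pair the pools. The scripts were tested on simulated data. The number of arrays limits the precision. The alternatives are in the closing section. No scan dates or slides were used.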

Additional observations from a re-analysis of the deposited data

Results flagged for a closer look

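In 64 groups of 4 pools, 1 for each group of the members and related probe sets, 2 had a pool that stood far from the other 3, measured by its gap over the range of the group. Chance gives about 1 such group in 20. SLA-2 Ssc.13780.12.S1_a_at read 13.91 in lactating pool 2, above 13.61 to 13.66 in the other lactating pools. The probe set for SLA-1, SLA-2 and SLA-3 together, Ssc.13780.2.S1_x_at, read 11.14 in non-lactating pool 1, above 11.02 to 11.04 in the other non-lactating pools.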

How the results depend on the processing

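No member passed the threshold under any of 17 alternatives, and the lowest adjusted p was 0.105. With the 3′ minus 5′ covariate 4 of 20 members had an unadjusted p below 0.05 (limma), beside 2474 of 23999 probe sets. Among them were SLA-3 Ssc.13780.9.S1_a_at (0.49, unadjusted p = 0.00495), SLA-1 Ssc.13780.6.S1_a_at (-0.36, 0.0286) and SLA-1 Ssc.13780.1.S1_x_at (-0.35, 0.0303). Over 339 member values the differences ran from -0.39 to 0.86, and 34 of them, of 13 probe sets, changed sign, all with a size of at most 0.25 in the fit reported. The filter on the dimmest 25% left 19 of 20 members. The count of changed probe sets was 1643, and it was 406 (without non-lactating pool 1) to 1424 with 1 pool left out, among them 872, 775 and 598 without lactating pools 2, 3 and 4 and 646 without non-lactating pool 4. It was 0 with the 3′ minus 5′ covariate (2474 unadjusted) and 0 by the authors' equal-variance test after adjustment (4964 unadjusted). The cause was not tested. It was 1543 to 1810 under the trend, robust, loess, median centring, dim filter and series matrix alternatives. With the replicate number as a block it was 1790, of which 0 were members. Pools of equal number deviated together with r of 0.243, 0.09, 0.072 and 0.221, and not every pool correlated best with its own number.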
